A study of Homo sapiens with 6 samples.

Results

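The 8 genes that encode the subunits of condensin I and condensin II were read by RNA-seq in EJ, an established line of human bladder cancer cells, after stable knockdown of STIL. The members were chosen by name, with earlier results of these data known. All 8 (SMC2, SMC4, NCAPD2, NCAPG, NCAPH, NCAPD3, NCAPG2 and NCAPH2) were found among the 15953 genes of the deposited log2 CPM tables (CPM is the read count scaled by library size). There were 2 groups of 3 libraries. The control libraries came from EJ cells that carried the negative control lentivirus shNC, and the STIL-knockdown libraries from EJ cells that carried the lentivirus shSTIL. The column headings of the tables name the groups by siRNA, and the grouping here follows the sample labels. The sources used here give neither the hairpin sequence nor whether the cells were a clone or a pool, and they do not say whether the 3 libraries of a group were separate cultures, so the p-values measure the spread between these libraries, which may be technical. STIL encodes a protein of centriole duplication. RNA came from bulk cells, so less RNA per cell and fewer cells in the phase that expresses a gene cannot be told apart.

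Condensins are ring-shaped complexes that fold chromatin into loops and shape the compact chromosomes of mitosis. Each complex holds the same pair of ATPases, SMC2 and SMC4, whose heads are bridged by a kleisin subunit (NCAPH in condensin I, NCAPH2 in condensin II). The kleisin carries a pair of HEAT-repeat subunits, NCAPD2 and NCAPG in condensin I, and NCAPD3 and NCAPG2 in condensin II. Condensin II is in the nucleus throughout the cell cycle and starts compaction in prophase, whereas condensin I reaches the chromosomes after the nuclear envelope breaks down. In dividing cells several of these genes belong to the programme of genes that are transcribed from S phase to mitosis.

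Many genes of that programme have a cell cycle genes homology region near their start, a short element of the form TTTGAA, which is read by the DREAM and MuvB complexes. The 300-base windows of RefSeq (GRCh38.p14, 250 bases before to 50 after each start) held 10 starts of 7 members, and NCAPH2 was not matched. The word TTTGAA was searched on both strands. It was found in 6 of the 10 windows, belonging to 6 of the 7 genes, against 15.2% of all 35116 windows. Within 50 bases of the start it was found in 4 of the 10 windows, belonging to 4 genes, against 4.62% of all windows. The matches of these members are shown, each on the strand of its gene from 5′ to 3′ (minus for NCAPD3 and NCAPG2, plus for the others), because 1 word recurs in genes of both complexes. Capitals mark the matched word (TTCAAA is TTTGAA read on the other strand), and distances run from its first base to the RefSeq start. The gene coordinates and neighbour distances given later use the outermost start in GENCODE 29. For SMC4, NCAPD2 and NCAPD3 that start lies outside the matched window.
NCAPG, chr4:17810932-17810961, 35 bases before the start: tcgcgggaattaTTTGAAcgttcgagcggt
NCAPD3, chr11:134223953-134223982, 3 bases before the start: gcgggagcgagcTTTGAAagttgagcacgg
SMC2, chr9:104094294-104094323, 3 bases before the start: ctcgcgccgaaaTTCAAAggaataaatagt
NCAPG2, chr7:158704755-158704781, 36 bases after the start: ccggcgggtgcgTTTGAAtctggtccg
SMC4, chr3:160399563-160399592, 75 bases before the start: gccgcactttttTTCAAAttagtggatccc
NCAPD2, chr12:6493945-6493974, 145 bases before the start: cagccgttgagaTTTGAActcggtatttgt

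The window of NCAPH held no TTTGAA but the related word TTTAAA, 33 bases after its start (chr2:96335786-96335815, cgacgcgcgcgaTTTAAAaccagctcagga), a word that 12.2% of all windows hold. The word CCAAT, which NF-Y binds in many mitotic promoters, was searched on both strands. It was found in 3 of the 10 windows (NCAPD2, NCAPD3 and NCAPH), against 34.6% of all windows, so it was not more frequent in the members. In NCAPD2 it occurred 4 times on the minus strand. Cores of E2F sites were searched on both strands as 4 words. These were TTCCCGC as the first, TTGGCGC as the second, TTCGCGC as the third and TTGCCGC as the last. At least 1 of them was found in 3 of the 10 windows (NCAPD3, NCAPG and SMC4), against 13.0% of all windows. These matches are descriptions of the sequence and no binding was measured.

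The libraries held 16214772 to 16431243 reads in the control group and 16734469 to 16901634 in the STIL-knockdown group, as recovered from the spacing of the log2 CPM values. STIL itself had log2 CPM values of 5.98, 6.10 and 6.01 in controls 1 to 3 and of 4.05, 4.06 and 4.01 in knockdowns 1 to 3, and 25.2% of the control mean remained. Of 13 measured markers of urothelium and bladder cancer lines, VIM (15492 to 23924 reads), KRT18, KRT8 and KRT7 (1345 to 2229 reads) were abundant, whereas UPK2, KRT20, KRT5 and CDH1 had 0 to 5 reads in every library and GATA3 had 4 to 9. UPK1A had 19 to 33 reads, UPK1B 5 to 20 and TP63 8.8 to 14.2. PPARG, a regulator of luminal urothelium, had 302 to 405 reads. The measured uroplakins, KRT20 and KRT5 were thus low, while KRT7, KRT8, KRT18 and PPARG were not. UPK3A and KRT14 were not among the genes analysed. In the same list 3 genes were called lower and 2 higher, namely VIM (-0.68), KRT8 (-0.70), UPK1B (-1.12), KRT7 (0.49) and PPARG (0.26) as log2 fold changes, and their part in the other results was not tested. Of 4 markers of other cells, PECAM1 and ALB had 0 to 7 reads and the others were not analysed here.

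All 8 condensin genes were lower in STIL-knockdown cells, and for each of them the groups did not overlap. They were called in limma, fitted over all genes with Benjamini-Hochberg adjustment, at an adjusted p under 0.01. The fall ranged from a log2 fold change of -0.16 in SMC4 to -0.97 in NCAPH, with a median of -0.67. In the same fit 23.6% of all genes were called lower and 23.5% higher, and the median of all genes was 0.0052. Among the 4011 genes within the members' range of mean log2 CPM, 36.1% were called lower. Groups that did not overlap, with the STIL-knockdown group lower, were found in 30.5% of all genes. Since 3 libraries against 3 cannot give an exact two-sided permutation p below 0.1, each member had p = 0.1 in that test.

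**Figure D1:**
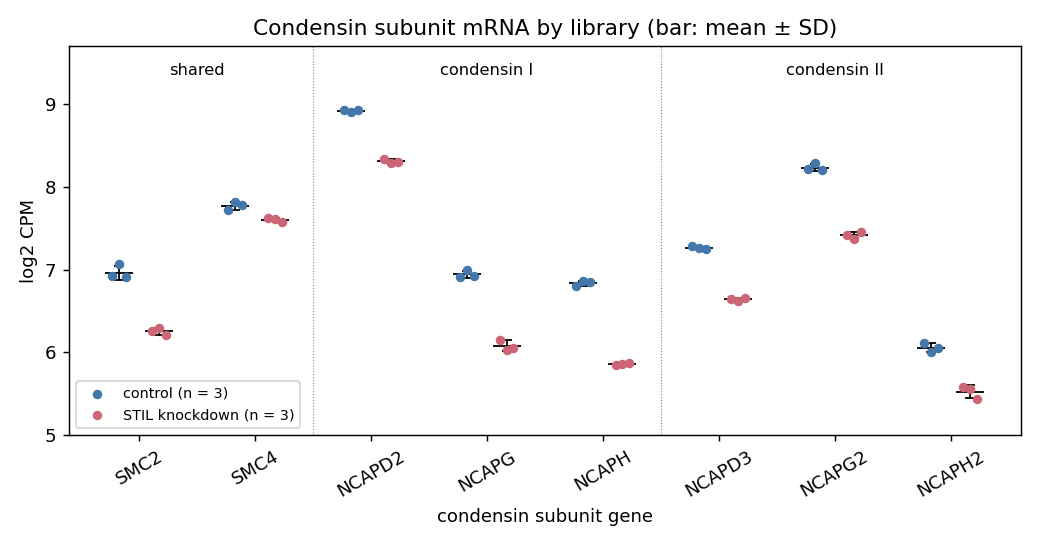
Log2 CPM (y axis) of the 8 condensin genes (x axis), with 1 point for each of 3 control and 3 STIL-knockdown libraries and bars for the mean ± SD. The STIL-knockdown points of every gene lie below its control points, with the narrowest gap in SMC4, from 7.72 in the lowest control library to 7.62 in the highest STIL-knockdown library.

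The kleisin of condensin I fell most. NCAPH lies on the plus strand of chromosome 2 from 96335787 to 96373845 (GRCh38). Controls 1 to 3 gave log2 CPM values of 6.80, 6.86 and 6.85, and knockdowns 1 to 3 gave 5.85, 5.86 and 5.87. Both groups were narrow and lay apart by almost 1 unit of log2 CPM. The log2 fold change was -0.97 (SE 0.04, adjusted p = 1.0e-10 in limma), and 50.9% of the control mean remained. Control libraries held 1788 to 1887 reads of NCAPH and STIL-knockdown libraries 983 to 1000.

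NCAPH2, the kleisin of condensin II, had the second smallest fold change of the members. It lies on the plus strand of chromosome 22 from 50508216 to 50523472. The log2 CPM values of controls 1 to 3 were 6.11, 5.998 and 6.06, and those of knockdowns 1 to 3 were 5.58, 5.56 and 5.44. STIL-knockdown replicate 3 was the lowest of the 6 libraries, and the lowest control library was still above the highest STIL-knockdown library. The log2 fold change was -0.53 (SE 0.05, adjusted p = 7.1e-07 in limma), and 69.3% of the control mean remained. With 734.14 to 1104.38 estimated reads it was the member with the fewest reads.

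Of the HEAT-repeat subunits, NCAPG of condensin I and NCAPG2 of condensin II fell most. NCAPG lies on the plus strand of chromosome 4 from 17810902 to 17844862. Controls 1 to 3 gave log2 CPM values of 6.91, 6.99 and 6.93, and knockdowns 1 to 3 gave 6.15, 6.03 and 6.05, a log2 fold change of -0.86 (SE 0.04, adjusted p = 1.4e-09 in limma). The highest STIL-knockdown library was below the lowest control library, and 54.9% of the control mean remained. NCAPG2 lies on the minus strand of chromosome 7 from 158631311 to 158704829. The log2 CPM values of controls 1 to 3 were 8.21, 8.28 and 8.20, and those of knockdowns 1 to 3 were 7.42, 7.37 and 7.46. The log2 fold change of NCAPG2 was -0.82 (SE 0.03, adjusted p = 4.2e-10 in limma), and 56.8% of the control mean remained.

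The other HEAT-repeat subunits, NCAPD2 of condensin I and NCAPD3 of condensin II, had smaller log2 fold changes, and their replicates lay close together. NCAPD2 lies on the plus strand of chromosome 12 from 6493356 to 6531955. Controls 1 to 3 gave log2 CPM values of 8.92, 8.90 and 8.93, and knockdowns 1 to 3 gave 8.34, 8.29 and 8.30, a log2 fold change of -0.61 (SE 0.03, adjusted p = 1.3e-09 in limma). It had the most reads of the members, 5332 to 7805, and 65.6% of the control mean remained. NCAPD3 lies on the minus strand of chromosome 11 from 134150119 to 134225454. The log2 CPM values of controls 1 to 3 were 7.28, 7.26 and 7.25, and those of knockdowns 1 to 3 were 6.64, 6.62 and 6.65. The log2 fold change of NCAPD3 was -0.62 (SE 0.03, adjusted p = 2.3e-09 in limma), and 65.0% of the control mean remained.

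The ATPases shared by both complexes had the most unlike log2 fold changes of the 4 pairs of like subunits. SMC2 lies on the plus strand of chromosome 9 from 104094260 to 104141417. Controls 1 to 3 gave log2 CPM values of 6.92, 7.06 and 6.91, and knockdowns 1 to 3 gave 6.26, 6.29 and 6.21, a log2 fold change of -0.71 (SE 0.04, adjusted p = 1.7e-08 in limma). Control replicate 2 was the highest library, and 61.2% of the control mean remained.

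SMC4 had the smallest fall. It lies on the plus strand of chromosome 3 from 160399274 to 160434962. The log2 CPM values of controls 1 to 3 were 7.72, 7.81 and 7.78, and those of knockdowns 1 to 3 were 7.62, 7.61 and 7.58. The groups were close without overlap, and 89.2% of the control mean remained. The log2 fold change was -0.16 (SE 0.03, 95% confidence interval -0.24 to -0.09, adjusted p = 8.0e-04 in limma). Of all genes, 35.8% had a log2 fold change at or below this value. The call of SMC4 was kept without control replicate 1 (-0.19, adjusted p = 0.0025) but was lost without any other library, namely control replicate 2 (-0.14, adjusted p = 0.0109), control replicate 3 (-0.16, adjusted p = 0.0185) and STIL-knockdown replicates 1 (-0.17, adjusted p = 0.0154), 2 (-0.17, adjusted p = 0.0162) and 3 (-0.15, adjusted p = 0.0214). The other 7 members kept their call in each of these 6 limma fits, which called fewer of all genes lower than the fit of all libraries did (17.7%, 17.8% and 16.5% without control replicates 1, 2 and 3, and 16.7%, 16.7% and 15.7% without STIL-knockdown replicates 1, 2 and 3).

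The same 7 members, without SMC4, were called when the mean-variance trend was left out (18.7% of all genes lower), with each gene's own variance (15.3%) and with limma treat against a change of 1.2-fold (11%). All 8 were called with the replicate block (21.7%), quantile normalization (21.9%), median centring (21.3%), a minimum mean log2 CPM of 1 (33.3%), a prior count of 0.5 (23.4%), a threshold of 0.05 (28%), edgeR (24.7%) and DESeq2 (21.4%).

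Whether the subunits of a pair changed by the same amount was examined within each library, where the scaling of the library cancels. The difference in log2 CPM between the subunits of a pair was taken in every library, and 4 pairs were compared between the groups. Log2 CPM is not corrected for transcript length, which cancels between the groups but not between the subunits of a pair. For the kleisins the groups did not overlap. NCAPH exceeded NCAPH2 by 0.69, 0.86 and 0.79 log2 units in controls 1 to 3 and by 0.26, 0.31 and 0.43 in knockdowns 1 to 3. The log2 difference between the groups was -0.45, which corresponds to a ratio of NCAPH to NCAPH2 of 1.72 in control cells and 1.26 in STIL-knockdown cells. In the exact two-sided permutation test p was 0.1, the smallest possible (adjusted p = 0.2 over the 4 pairs).

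For the ATPases there was no overlap either. SMC2 lay below SMC4, with log2 differences of -0.79, -0.75 and -0.87 in controls 1 to 3 and -1.36, -1.32 and -1.37 in knockdowns 1 to 3. The log2 difference between the groups was -0.54 (exact two-sided permutation test, p = 0.1, adjusted p = 0.2). As a ratio of CPM, not corrected for transcript length, SMC2 stood at 0.573 of SMC4 in control cells and at 0.393 in STIL-knockdown cells. An exact permutation test of 3 libraries against 3 cannot pass a threshold of 0.05.

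For the HEAT-repeat pairs the groups overlapped. NCAPD2 exceeded NCAPD3 by 1.64, 1.65 and 1.68 log2 units in controls 1 to 3 and by 1.69, 1.67 and 1.64 in knockdowns 1 to 3. The log2 difference between the groups was 0.013 (exact two-sided permutation test, p = 0.7, adjusted p = 0.7), and single STIL-knockdown libraries differed from single control libraries by -0.038 to 0.051. NCAPG lay below NCAPG2, with log2 differences of -1.30, -1.29 and -1.28 in controls 1 to 3 and -1.27, -1.34 and -1.41 in knockdowns 1 to 3. The log2 difference between the groups was -0.049 (exact two-sided permutation test, p = 0.4, adjusted p = 0.533), with a range of -0.13 to 0.037 between single libraries. A p above the threshold does not show that the subunits of these pairs changed alike, but the ranges bound how far they moved apart in these libraries.

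**Figure D2:**
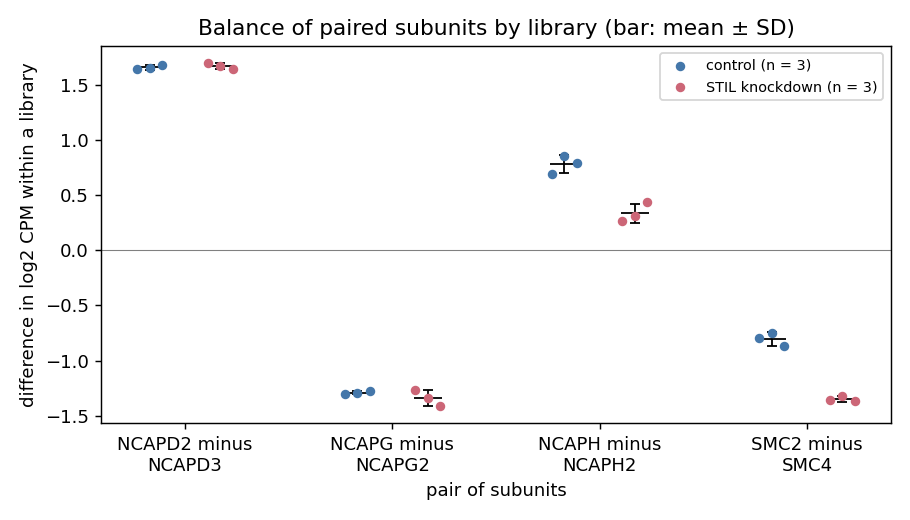
Difference in log2 CPM between the subunits of 4 pairs (y axis, first gene minus second) in each library, with bars for the mean ± SD of 3 control and 3 STIL-knockdown libraries. The NCAPD2 to NCAPD3 and NCAPG to NCAPG2 pairs overlap between the groups, whereas NCAPH to NCAPH2 (0.78 against 0.34) and SMC2 to SMC4 (-0.80 against -1.35) do not.

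The log2 CPM profiles of the members were also centred on their own mean and compared over the 6 libraries. Of the 28 pairs of members, NCAPD2 and NCAPD3 were the closest, at a root-mean-square distance of 0.020 log2 units, followed by NCAPG and NCAPG2 at 0.049. SMC4 and NCAPH were the farthest apart, at 0.41. These distances use the same values as the fold changes and are a description.

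Levels were compared between members per length of the longest coding transcript of GENCODE 29 (GRCh38), in RPKM (reads per kb, scaled by library size). In control cells NCAPD2 had the highest level, 85.8 ± 0.23 (SD, n = 3), followed by NCAPG2 at 56.4 ± 2.1, SMC4 at 39.2 ± 1.5 and NCAPH at 38.1 ± 0.95. Lower levels were found for NCAPH2 (31.5 ± 1.0), NCAPD3 (29.8 ± 0.35), NCAPG (26.0 ± 1.0) and SMC2 (20.5 ± 1.4). In this order only SMC4 and NCAPH overlapped between control libraries. The mRNA levels of subunits that meet in 1 complex spanned 85.8 to 20.5 RPKM in condensin I.

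In STIL-knockdown cells NCAPD2 was again the highest, at 58.0 ± 0.90 RPKM (SD, n = 3). SMC4 was second at 36.1 ± 0.59, above NCAPG2 at 33.0 ± 0.88, and these did not overlap. NCAPH, above NCAPH2 in control cells, came to 19.95 ± 0.22 and overlapped with NCAPD3 at 19.96 ± 0.20, below NCAPH2 at 22.5 ± 1.2. NCAPG and SMC2 remained the lowest at 14.7 ± 0.63 and 12.9 ± 0.40. Per coding length the top 3 genes kept this order in both groups, but the lower ranks changed: in control cells NCAPD3 (33.6) instead of SMC2 (34.2) was the lowest, with overlap, and in STIL-knockdown cells NCAPH (26.9) and NCAPH2 (26.4) overlapped, as did SMC4 (51.1) and NCAPG2 (49.99). The order of neighbouring levels depends on the transcript that is taken as the length.

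**Figure D3:**
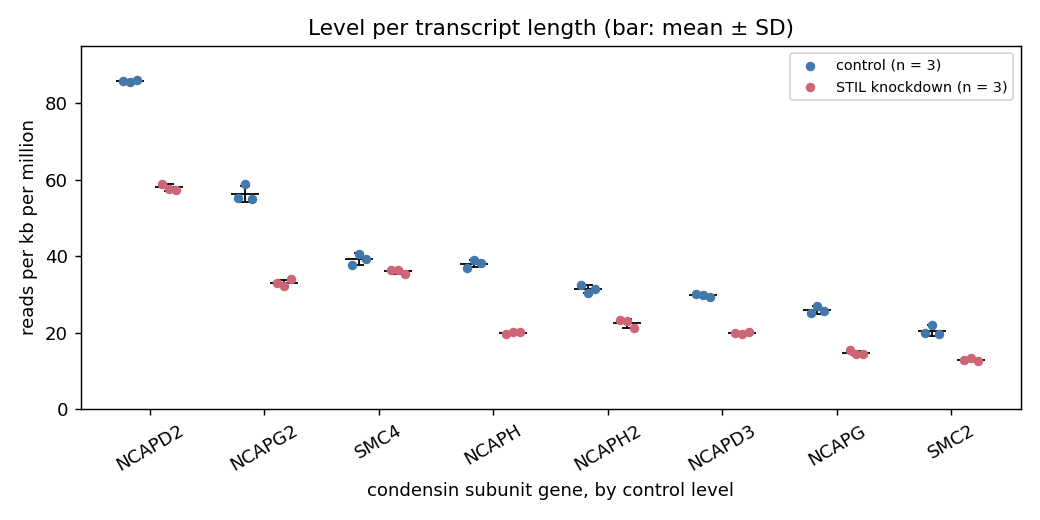
Level of the 8 condensin genes in RPKM over the longest coding transcript (y axis), ordered by the control mean, with 1 point per library and bars for the mean ± SD (n = 3 in each group). NCAPD2 is the highest in both groups (85.8 and 58.0), and SMC4 stays close to its control level (39.2 and 36.1) while NCAPG2 drops from 56.4 to 33.0.

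Other proteins of the mitotic chromosome were lower too. All 6 measured genes of that list were called lower and none higher, with log2 fold changes of -1.28 to -0.19 and a median of -0.67. In the same fit 23.6% of all genes were called lower, and 36.1% of genes in the members' range of mean log2 CPM. This list and those below were chosen with earlier results of these data known, so the counts are a description. The number called lower was 5 in each fit without 1 library (15.7% to 17.8% of all genes). It was 5 without the mean-variance trend (18.7%), 5 with each gene's own variance (15.3%) and 4 with limma treat (11%). NUSAP1, which bundles spindle microtubules near chromatin, had a log2 fold change of -1.28 (SE 0.03, adjusted p = 5.7e-12 in limma). MKI67, whose protein coats the surface of mitotic chromosomes, had -0.94 (SE 0.04, adjusted p = 8.0e-10). TOP2A, the topoisomerase of the mitotic chromosome axis, had -0.76 (SE 0.04, adjusted p = 1.3e-09). The median of the list was close to that of the condensin subunits.

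The list of condensin regulators was mixed. Of 11 genes, 6 were called lower, 3 higher and 2 were not called, with a median log2 fold change of -0.17. The share called lower was 54.5%, against 23.6% of all genes and 36.1% of genes in the members' range of mean log2 CPM. The share called higher, 27.3%, was near the 23.5% of all genes and below the 37% in that range. Lower were CCNB1 (-0.64, SE 0.03, limma adjusted p = 1.8e-09) and CDK1 (-0.45, SE 0.04, adjusted p = 5.9e-07), the cyclin and kinase whose activity turns on condensins in mitosis. MCPH1, which restrains condensin II in interphase, was higher, with a log2 fold change of 0.53 (SE 0.08, adjusted p = 5.3e-05) at 232 to 403 reads per library. CSNK2A1, a catalytic subunit of casein kinase 2, had 0.17 (SE 0.03, adjusted p = 2.9e-04), and PPP2CA, a catalytic subunit of protein phosphatase 2A, had 0.13 (SE 0.03, adjusted p = 0.0030). The number called lower was 3 without STIL-knockdown replicate 1 and 2 without STIL-knockdown replicate 2 or 3, in fits where 16.7%, 16.7% and 15.7% of all genes were called lower. The number called higher was 0 without STIL-knockdown replicate 3, where 15% of all genes were called higher. Without that library MCPH1 had 0.49 (adjusted p = 0.0108) and CSNK2A1 0.17 (adjusted p = 0.0113). The call of PPP2CA was kept only without control replicate 1 (adjusted p 0.0115 to 0.0240 in the other 5 fits).

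The list of other SMC complexes held genes of cohesin with its loader and release factors, genes of SMC5/6, and SMCHD1, a related SMC protein of the inactive X chromosome. Of 16 genes, 4 were called lower, 6 higher and 6 were not called, with a median log2 fold change of -0.030. The share called lower, 25%, was near the 23.6% of all genes and below the 36.1% of genes in the condensin members' range of mean log2 CPM. The share called higher, 37.5%, was above the 23.5% of all genes and near the 37% in that range. Some genes of this list averaged below that range, such as NSMCE2 at 4.32 log2 CPM. SMC1A, an ATPase of cohesin, fell by 0.53 on the log2 scale (SE 0.04, adjusted p = 2.7e-08 in limma), PDS5B, which regulates the release of cohesin, had -0.45 (SE 0.05, adjusted p = 3.8e-06), and NSMCE1 of the SMC5/6 complex had -0.37 (SE 0.05, adjusted p = 4.2e-05). NSMCE3, another subunit of SMC5/6, rose with 0.56 (SE 0.07, adjusted p = 9.0e-06), the cohesin loader NIPBL with 0.43 (SE 0.04, adjusted p = 1.7e-06) and PDS5A with 0.42 (SE 0.04, adjusted p = 7.1e-07). The number called lower was 2 without STIL-knockdown replicate 1 or 2, and the number called higher was 3 without STIL-knockdown replicate 3. Without the latter NSMCE3 had 0.53 (adjusted p = 0.0103). The call of NSMCE1 was kept without control replicate 2 or STIL-knockdown replicate 3 and lost without each of the other 4 libraries (adjusted p 0.0102 to 0.0120).

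The partner ATPases of these complexes were added after their values were seen. SMC3, the partner of SMC1A, had a log2 fold change of -0.36 (SE 0.05, adjusted p = 2.1e-05 in limma), a call lost without any 1 of the STIL-knockdown libraries (adjusted p 0.0105 without replicate 1, 0.0113 without replicate 2 and 0.0144 without replicate 3). SMC5 had -0.069 (adjusted p = 0.178) and SMC6 0.0096 (adjusted p = 0.874), and neither was called. Within the SMC family the value of SMC2 (-0.71) was the lowest and that of SMC4 (-0.16) lay between those of SMC3 and SMC5. No test of the differences between these families was made.

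**Figure D4:**
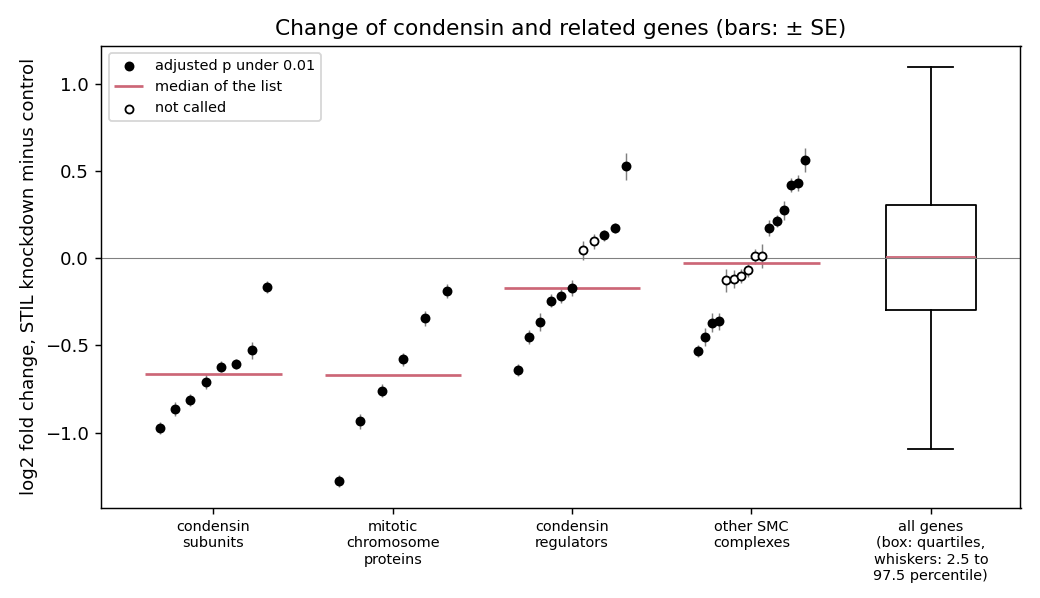
Log2 fold change (y axis, STIL knockdown minus control) of each gene in 4 lists, with the standard error as bars, filled points for an adjusted p under 0.01 and a line for the median, beside a box of all 15953 genes. The condensin and mitotic chromosome lists lie below 0 throughout, whereas the regulators and the other SMC complexes spread on both sides of it.

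The genomic neighbours of the condensin genes were read because 5 members have a gene on the opposite strand whose outermost annotated start lies within 1000 bases of their own, as GENCODE 29 gives it. This comparison was added after the members' values were seen. SMC4 starts 606 bases from IFT80, a gene of intraflagellar transport. IFT80 had log2 CPM values of 5.52, 5.62 and 5.54 in controls 1 to 3 and of 4.999, 4.87 and 4.87 in knockdowns 1 to 3, a log2 fold change of -0.65 (SE 0.05, adjusted p = 2.4e-07 in limma) beside the -0.16 of SMC4. The neighbour lay farther below its control level than the condensin gene did.

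A pair of neighbours had log2 fold changes near those of the member. MRPL51, a mitochondrial ribosomal protein gene that starts 485 bases from NCAPD2, had -0.60 (SE 0.05, adjusted p = 2.2e-07 in limma) beside -0.61. LMF2, which starts 525 bases from NCAPH2, had -0.50 (SE 0.04, adjusted p = 5.1e-07) beside -0.53. The neighbours of NCAPD3 and NCAPG had log2 fold changes above 0. VPS26B, a retromer gene that starts 809 bases from NCAPD3, had log2 CPM values of 6.05, 6.04 and 6.06 in controls 1 to 3 and of 6.39, 6.38 and 6.46 in knockdowns 1 to 3. Its log2 fold change was 0.36 (SE 0.04, adjusted p = 2.4e-06 in limma) beside the -0.62 of NCAPD3.

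DCAF16, which encodes a substrate receptor of a ubiquitin ligase and starts 144 bases from NCAPG, had 0.17 (SE 0.05, adjusted p = 0.0061 in limma) beside -0.86. Its call was lost in each of the 6 limma fits that left out 1 library, with log2 fold changes of 0.13 to 0.20 and adjusted p of 0.0268 to 0.0666. Annotated exons of a member and its neighbour share 607 bases for SMC4 and IFT80, 486 for NCAPD2 and MRPL51 and 249 for NCAPD3 and VPS26B. Genes that start farther away also share exon bases with a member on the opposite strand, 1631 for NCAPG and LCORL, 1561 for SMC4 and TRIM59 and 465 for NCAPD3 and JAM3. Their log2 fold changes were -0.0016 for LCORL (adjusted p = 0.989 in limma), -0.27 for TRIM59 (SE 0.08, adjusted p = 0.0081) and -0.48 for JAM3 (adjusted p = 0.284), which lay near the floor of log2 CPM. Whether the reads were counted by strand is not given in the sources used here, and how reads from these stretches were assigned was not tested. NCAPG, NCAPD3 and NCAPH2 had read numbers that were not whole, as RSEM gives where it splits reads between genes. Those of NCAPD3 were close to whole, from 1687.02 to 2492.03. The other 5 members, SMC4 and NCAPD2 among them, had whole numbers in all 6 libraries, so no split reads were seen for them.

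**Figure D5:**
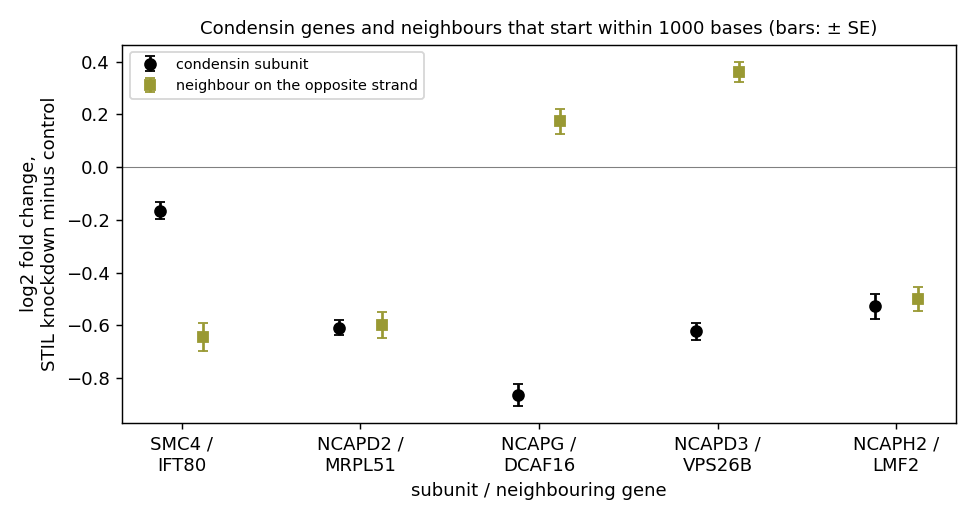
Log2 fold change (y axis, STIL knockdown minus control, with the standard error as bars) of 5 condensin genes and of the gene on the opposite strand that starts within 1000 bases. NCAPD2 and NCAPH2 lie next to their neighbours, IFT80 lies below SMC4 (-0.65 against -0.16), and DCAF16 and VPS26B lie above 0 where NCAPG and NCAPD3 lie below it.

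The listed siRNA sequences against STIL were compared with the members, although the hairpin of shSTIL is not given in the sources used here and may differ from them. The longest run shared between a 19-base siRNA target and the longest coding transcript of any member was 10 bases. The seed of an siRNA, bases 2 to 8 of its antisense strand, can pair with 3′ UTRs. The antisense strand of siSTIL#2 is shown with its seed in capitals, followed by the 3′ UTR matches of members with the paired word, whose position is given, in capitals (GRCh38, NCAPG2 on the minus and NCAPG on the plus strand).
siSTIL#2 antisense: uUAAUCCAgagaucacugctt
NCAPG2, chr7:158641279-158641285: ttgatatagtTGGATTAatatccacca
NCAPG, chr4:17844057-17844063: gaatgtttccTGGATTAgggaggtgtc

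The word TGGATTA was found in 2 of the 8 members, NCAPG and NCAPG2, against 10.7% of 15343 genes with a 3′ UTR, and in NCAPG2 it is followed by the A of an 8-base site. The seed word of siSTIL#1, TACATAT, was found in SMC2, NCAPG and NCAPD3 (16.6% of genes), and that of siSTIL#3, TTCCACA, in none of the members (15.0% of genes). In all, 4 members held at least 1 of these words and 4 held none. Those without were SMC4, NCAPD2, NCAPH and NCAPH2, which include the smallest and the largest fall. The share of all genes with at least 1 of these words was not counted, so the number of members has no background. The 3′ UTRs searched ran from 213 bases in NCAPH2 to 2094 in SMC2. The part of these words in the fold changes was not tested.

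For each member the gene with the most similar profile was sought among the 9935 other genes that averaged at least 3 log2 CPM, by the root-mean-square distance of the centred log2 CPM over the 6 libraries. NCAPH2 was closest to ERI3 (0.0051), NCAPD3 to MTCH1 (0.0079) and NCAPD2 to RAPGEF5 (0.0097). SMC4 was closest to CMBL (0.012), NCAPG2 to HPS6 (0.015), NCAPH to MTHFD2 (0.021), NCAPG to PEG10 (0.021) and SMC2 to CCP110 (0.023), a centriole gene whose log2 fold change was -0.71. With only 2 groups, such a distance mainly matches genes of a like difference between the groups, and it says nothing of shared function.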

How the data were processed

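RNA was isolated from stable shNC and shSTIL EJ cells and sequenced on a BGISEQ-500 instrument. The authors cleaned the reads with SOAPnuke, aligned them with Bowtie2 and derived an expected count for each gene with RSEM. The submitters' processing notes also name limma and hg38. Expected counts of 15957 genes were deposited for 4 libraries, 1 of the control group and 3 of STIL-knockdown cells. For all 6 libraries the authors deposited log2 CPM of 15953 genes, made with edgeR. Their tool versions are not given in the sources used here.

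Groups were taken from the sample labels. They were compared on the deposited log2 CPM, since only 1 control library has counts here, with limma 3.58.1 (lmFit, then eBayes with trend) in R 4.3.3 over all genes and no replicate block. A Benjamini-Hochberg adjusted p under 0.01, as in the study's methods, was a call. Pair differences were tested by exact permutation of the 20 labellings. Reads were recovered from the spacing of low log2 CPM values. Of these, 87.1% to 87.4% were whole within 0.005 reads, and the largest difference from a deposited count was 0.0044 reads. After rounding they were used in edgeR 4.0.16 and DESeq2 1.42.0 as alternatives. Levels per kb used GENCODE 29, and promoters came from RefSeq tables.

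The members and lists were chosen with earlier results of these data known. The genes named are the 8 members, STIL, up to 3 called falls and 3 called rises per list, and the nearest profile of each member. A gene that this rule names is not reported here. All 3 fits were tested on simulated data, where limma recovered fewer of the changed genes than edgeR or DESeq2. In all, limma made more false calls, 44 against 3 in edgeR and 1 in DESeq2. Among genes averaging 3 log2 CPM or higher, limma made 0, edgeR 1 and DESeq2 1. The members averaged 5.79 log2 CPM (NCAPH2) or higher. Each simulated set held 200 changed genes, far fewer than the 7509 called here. All its genes were drawn with the same dispersion (the spread between replicates beyond sampling noise). The simulated counts therefore do not give the rate of false calls in the real libraries, at the members' level or elsewhere. Libraries of a group differed by more than sampling noise (chi-square per degree of freedom 1.70 to 3.49).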

Additional observations from a re-analysis of the deposited data

How the results depend on the processing

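SMC2, NCAPD2, NCAPG, NCAPH, NCAPD3, NCAPG2, NCAPH2 and STIL kept their direction and their call under every alternative that gave a test. SMC4 (-0.16) had an adjusted p of 0.0218 without the mean-variance trend, 0.0162 with each gene's own variance and 1 with limma treat, and without 1 library its log2 fold change ran from -0.19 to -0.14. Over all its alternatives its adjusted p ran from 1.5e-04 to 1. The deposited counts by themselves, where 1 control library allows no test, gave log2 fold changes of -0.11 for SMC4, -0.94 for NCAPH and -1.94 for STIL, and a change in the NCAPH to NCAPH2 difference of -0.36. Called genes, 7509 in all (3759 lower, 3750 higher), were 4784 (2434 and 2350) with each gene's own variance and 3317 (1759 and 1558) with limma treat. Without 1 library they were 4900 to 5638 (2500 to 2837 and 2400 to 2801), the lowest without STIL-knockdown replicate 3. The regulators called lower, 6, were 2 with each gene's own variance, 2 with treat and 2 to 5 without 1 library. Those called higher, 3, were 1 without the trend, 0 with treat and 0 to 3 without 1 library. In the other SMC complexes the 4 lower were 2 with each gene's own variance, 2 with treat and 2 to 4 without 1 library, and the 6 higher were 3, 3 and 3 to 5. SMC6, not called, had -0.0047 without control replicate 1 and -0.024 without STIL-knockdown replicate 3, in a range up to 0.035. Except where libraries were left out, the cause was not tested. With the replicate block 6898 genes were called, all 8 members among them, and the call of DCAF16 was lost (adjusted p = 0.020). The deviations of same-numbered libraries from their group means had correlations of -0.12, -0.055 and -0.11. These values cannot show whether such libraries were handled as pairs, and the labels do not say. In a sign-flip test of the pairs of subunits the block allows no p below 0.25.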
